A study of Mus musculus with 5 samples.

Results

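Chad-high fibroblasts of the temporomandibular joint (TMJ) disc, the fibrocartilage pad between the jaw condyle and the skull, were followed across 5 single-cell RNA-seq libraries of the mouse. The cells were chosen by their own counts. A cell was retained with at least 1000 UMIs (unique molecular identifiers, each counting 1 captured RNA molecule) and at most 30% of them from mitochondrial genes. A retained cell was a Chad-high fibroblast when Chad reached at least 2000 CPM (counts per cell scaled to a total of 1000000 UMIs), Ibsp had 0 UMIs, Col2a1 had fewer than 3 UMIs, and the endothelial genes Cdh5 and Pecam1, the myeloid gene Tyrobp and the mural gene Rgs5 had 0 UMIs. By this rule 5522 cells were found among 51948 barcodes (10.6%), of which 49188 were retained.

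Chondroadherin, the product of Chad, is a leucine-rich repeat protein of the cartilage matrix that binds collagen and cell-surface integrins. Fibrocartilage carries load with collagen fibres and resists compression with proteoglycans, and its cells combine features of fibroblasts and chondrocytes. Comp and Cilp2 encode secreted matrix proteins of cartilage and tendon, and Sox9 encodes the transcription factor that drives the chondrocyte program. In the GRCm38 annotation of the mouse genome Chad lies on chromosome 11 from position 94565047 to 94569127 on the plus strand. Comp (70373558 to 70382066, plus strand) and Cilp2 (69880369 to 69887687, minus strand) both lie on chromosome 8.

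The labels give wild-type C57BL/6 mice for all 5 libraries. Normal discs were collected at 3 d (newborn), 3 w (juvenile), 16 w (adult) and 78 w (aged), and injured discs at 7 w of age, 2 w after a needle puncture of the anterior band at 5 w. Each condition was 1 library of dissociated discs, so no difference between conditions had a replicate check, and the intervals given cover counting error only. The study's methods state that pups of both sexes went into the 3 d suspension and that the mice of 3 w, 16 w and 78 w were males. They describe the puncture in Myh11-CreER mice with a tdTomato reporter, in which Cre is driven by a smooth muscle promoter. Only males of that line served for lineage tracing. The methods also describe the injury in female C57BL/6 mice without GFP, before these were joined to GFP mice. The labels of the injured library give wild type. The number of mice in a library is not given in the sources used here. In the injured library Xist, the RNA of the inactive X chromosome, stood at 599 CPM in Chad-high fibroblasts against 0.0607 at 3 w, 0.412 at 16 w and 0.132 at 78 w. The Y-linked gene Ddx3y stood at 0 CPM in the injured library against 136, 128 and 126 CPM. The injured library therefore differed from the 3 w, 16 w and 78 w libraries in sex-linked RNA as well as in age and injury, no uninjured library of the same age was analysed here, and these differences cannot be told apart. The files of the 78 w library carry a name that reads as 16 months, and its label was used.

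From 3 d to 78 w the libraries held 125130270, 125427849, 88998394 and 105309834 UMIs, and the injured library held 31585993. Chad-high fibroblasts had a median of 14770 UMIs at 3 w, 11427.5 at 16 w, 10701 at 78 w and 3782 in the injured library, against 12038, 8238, 9087 and 3546 in the other stromal cells of the same libraries. The other stromal cells passed every limit except that on Chad and gave at least 10000 CPM to Col1a1, Col1a2, Col3a1, Dcn and Lum together. They numbered 4725, 4119, 4880 and 4560. Between 96 and 138 barcodes of a library also occurred in another library. Of the barcodes of Chad-high fibroblasts, 3 at 3 w, 3 at 16 w, 1 at 78 w and 5 in the injured library also belonged to a Chad-high fibroblast of another library.

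No cell met the rule at 3 d, where 0 of 13620 retained cells allows a share of up to 0.0220% by a limit of 3 counts and 0.0271% by the exact interval. At 3 w 1110 cells met it, which was 11.9% of the retained cells (exact 95% binomial interval 11.3 to 12.6). The share was 20.9% at 16 w (1820 cells, 20.1 to 21.8), 13.2% at 78 w (1314 cells, 12.5 to 13.9) and 16.8% in the injured library (1278 cells, 16.0 to 17.7). The adult library thus had the highest share and the newborn library none. The intervals of 3 w and 78 w overlapped, and those of 16 w and of the injured library overlapped no other. In a dissociated tissue, a larger share of the cells and a better recovery of these cells from the matrix cannot be told apart. At 3 d 632 of 10424 cells that passed the other limits (6.06%) had a Chad UMI, and the highest of them reached 1949 CPM, just under the limit. The other libraries had a Chad UMI in 62.5% (3 w), 75.04% (16 w), 64.4% (78 w) and 55.5% (injured) of such cells. Endothelial cells, which should lack the gene, had a Chad UMI in 2.76%, 15.9%, 40%, 26.3% and 22.3% of cells from 3 d to the injured library, at a median of 7502.5 UMIs a cell at 3 d against 8169 in its stromal cells, so single Chad UMIs are in part background.

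**Figure D1:**
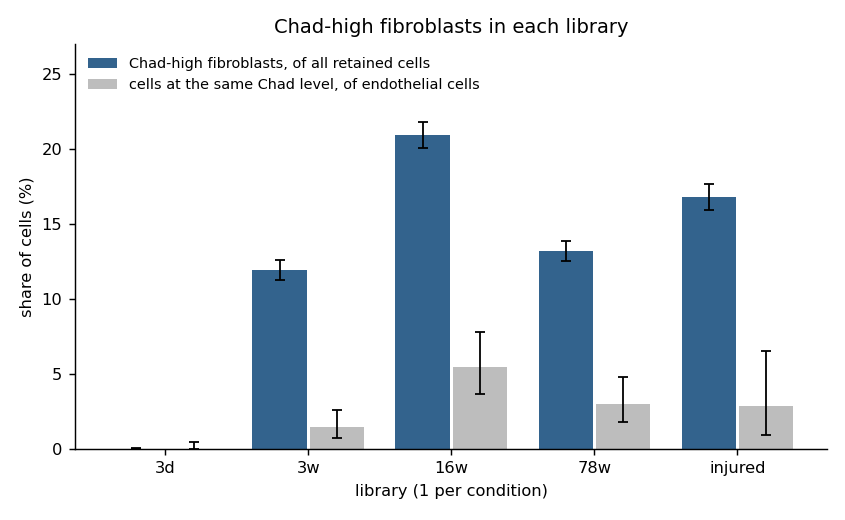
Share of retained cells that were Chad-high fibroblasts (blue) and share of endothelial cells at the same Chad level (grey), in % (y axis), for each library (x axis); bars show the share and whiskers its exact 95% binomial interval. The blue bars stand at 0 at 3 d, 11.9% at 3 w, 20.9% at 16 w, 13.2% at 78 w and 16.8% in the injured library, above the grey bar in each library with such cells.

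Free RNA and cell pairs can carry Chad into cells that do not make it, and endothelial cells gave a measure of this background. Cells with UMIs of both Cdh5 and Pecam1 reached the Chad limit in 0 of 798 cases at 3 d. At the later ages 10 of 699 (1.43%), 28 of 515 (5.44%) and 17 of 567 (3.00%) did so, and after injury 5 of 175 (2.86%). At the full depth of each cell, the background was highest in the library with the most Chad-high fibroblasts and stayed below their share in all 4 libraries. Endothelial cells were shallower, with medians of 6132, 5944, 5346 and 2637 UMIs from 3 w to the injured library. With every cell thinned to 1000 UMIs, the shares of Chad-high fibroblasts were 22.5%, 32.7% and 22.4% from 3 w to 78 w and 22.8% in the injured library, where 2 UMIs of Chad meet the limit and an Ibsp UMI is drawn less often. The thinned share at 3 d was 0.0514% (7 cells). The adult library stayed highest and the newborn library lowest at equal depth, while the injured library no longer stood apart from 3 w and 78 w. Thinned endothelial cells reached the limit in 2 of 210, 2 of 172, 1 of 192 and 2 of 75 cases from 3 w to the injured library. On these few cells the background was highest in the injured library (2.67%) and not at 16 w (1.16%).

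The limits on Ibsp and Col2a1 removed many cells with high Chad. Ibsp encodes bone sialoprotein, a matrix protein of mineralizing tissue, and Col2a1 the main collagen of hyaline cartilage. Of the cells at the Chad limit without endothelial, myeloid or mural UMIs, 34.4% at 3 w, 29.3% at 16 w and 30.9% at 78 w had an Ibsp UMI, against 7.48% in the injured library. Without the limits on both genes the shares were 18.4%, 30.3%, 20.8% and 19.7%, and the injured library then lay close to 3 w and 78 w. The higher share of Chad-high fibroblasts in the injured library than at 3 w and 78 w thus depended on the settings. Without these limits it held only against 3 w, and in thinned cells the shares lay close together. With at least 2000 UMIs the injured share was 18.0%, against 12.1% at 3 w and 13.3% at 78 w. The parts of Ibsp-positive cells and of depth in the share were not tested.

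The names given to the cells were read against their markers. Chad, which chose the cells, stood at 4105, 5363 and 4579 CPM from 3 w to 78 w and at 4458 in the injured library, against 420, 463, 393 and 368 CPM in the other stromal cells. Unless an age is named, levels are listed in that order. Comp stood at 8299, 7114, 10812 and 4989 CPM against 3826, 3500, 5691 and 2577, which was 1.90 to 2.17 times the level of the other stromal cells. Cilp2 stood at 1839, 315, 209 and 702 CPM against 1055, 262, 165 and 373. It was 1.74 times as high at 3 w and 1.88 times as high in the injured library, but only 1.20 times at 16 w and 1.26 times at 78 w, so Cilp2 set these cells apart less in the adult and aged discs.

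Cartilage markers differed in how far they were detected. Matn1, a matrilin of cartilage, had 0 UMIs in all 4 libraries. Acan, the core protein of aggrecan, stood at 33.2, 43.2, 104 and 80.5 CPM in Chad-high fibroblasts against 16.5, 7.43, 54.1 and 48.3 in the other stromal cells. An Acan UMI was found in 24.3%, 23.0%, 42.8% and 22.1% of the cells, against 3.29%, 3.30%, 6.35% and 3.43% of the shallower endothelial cells. Most of these cells therefore had no Acan UMI at this depth. Col9a3 and Col11a2, chains of the cartilage collagens IX and XI, stood at 92.3, 30.3, 21.1 and 50.7 CPM and at 30.3, 9.34, 17.7 and 36.3 CPM, against 34.5, 2.71, 3.67 and 14.1 CPM and 7.67, 1.55, 6.05 and 7.43 CPM in the other stromal cells. The summed level of the 10 cartilage markers, to which Chad itself belongs, was 15032, 13821, 16798 and 12021 CPM, with Comp holding the most UMIs, against 5794, 4908, 7055 and 4404 in the other stromal cells. Without Chad the sum was 10927, 8458, 12219 and 7564 CPM against 5374, 4445, 6662 and 4035. The cells thus had a fibroblast profile with higher levels of a subset of cartilage genes, and the name Chad-high fibroblasts is used for them.

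All 6 fibroblast markers were detected in each of the 4 libraries, with Dcn (decorin) at 24561, 27176, 25349 and 12458 CPM. Their sum was 58525, 30878, 28742 and 44438 CPM against 51038, 33879, 33715 and 54596 in the other stromal cells. It was thus higher at 3 w only, and the other stromal cells were chosen in part by such genes. The 6 tenocyte markers summed to 6274, 5628, 6060 and 5716 CPM, most of it from Fmod (fibromodulin), against 4746, 5719, 6344 and 5201. Tnmd, the defining tenocyte gene, stood at 79.7, 3.16, 7.92 and 35.8 CPM against 127, 16.0, 29.9 and 107. The 6 markers of adventitial fibroblasts summed to 161, 212, 196 and 177 CPM against 277, 504, 867 and 344 in the other stromal cells. Those of the synovial lining summed to 3554, 9254, 11837 and 4725 CPM, nearly all from Prg4, against 3235, 6997, 11423 and 3539. Lineages outside the stroma left little RNA, and the rule had removed cells with endothelial, myeloid or mural UMIs from both classes. The 8 endothelial markers summed to 3.64, 5.45, 9.31 and 9.88 CPM against 3.14, 5.69, 6.99 and 7.48 in the other stromal cells. The 8 macrophage markers summed to 9.89, 13.5, 22.7 and 51.8 CPM against 15.9, 15.4, 33.0 and 68.1. Cdh5, Pecam1 and Tyrobp were at 0 by rule. The 7 osteoblast markers summed to 0.916 to 3.35 CPM, led by Bglap (osteocalcin), with Ibsp at 0 by rule and Sp7 at 0 in all but the 78 w library. The 7 mural markers summed to 83.7 to 161 CPM, led by Pdgfrb, with Rgs5 at 0 by rule. The 6 muscle markers summed to 3.76 to 6.40 CPM, led by Tnnt3 or, in the injured library, Mylpf, and the 5 Schwann markers to 16.6 to 55.1 CPM, led by Mbp, with Sox10 at 0. The 5 erythroid markers summed to 22.3, 114, 8.52 and 108 CPM against 1.02, 2.79, 139 and 707 in the other stromal cells, led by Hbb-bs. At 3 w 98.9% of the Hbb-bs UMIs and at 16 w 69.1% came from 1 cell.

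Chad-high fibroblasts were then set beside the other stromal cells of the same library. Since the cells were chosen from these counts, the contrast is a description and not a test. A gene was called when it differed at least 2-fold in the same direction in all 4 libraries, among 2598 genes with a mean of at least 50 CPM. By this rule 9 genes were higher (0.346% of the genes tested) and 24 were lower (0.924%). The median ratio over all genes tested was 0.956. Without the 3 w library 15 genes were higher, and without the injured library 14.

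The 9 higher genes encode secreted, cell-surface and metabolic proteins. Lcn2, which encodes the siderophore-binding protein lipocalin, stood at 271, 296, 941 and 127 CPM, against 71.7, 34.4, 204 and 29.98 CPM in the other stromal cells. Scrg1, a small secreted protein also made by chondrogenic cells, stood at 346, 314, 464 and 540 CPM against 81.5, 33.3, 105 and 178. Endothelial cells stood at 28.1, 71.7, 110 and 64.2 CPM of Scrg1 and at 91.6, 78.4, 140 and 29.7 of Lcn2, so the level of the other stromal cells was at or under this background at 16 w and 78 w for Scrg1 and at 3 w and 16 w for Lcn2, and close to it in the injured library for Lcn2. The ratio of Scrg1 ranged from 3.03 (95% interval 2.88 to 3.19) in the injured library to 9.44 (8.87 to 10.0) at 16 w. For both genes the adult library had the largest ratio, and their levels in Chad-high fibroblasts were highest at 78 w for Lcn2 and in the injured library for Scrg1.

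Thbs1, a thrombospondin that activates latent TGF-beta, stood at 105, 337, 118 and 52.7 CPM against 34.0, 57.9, 24.1 and 9.84. Dlk1, an imprinted Notch-pathway ligand that restrains adipogenesis, stood at 454, 634, 623 and 302 CPM against 132, 96.7, 119 and 83.1. Cd200, a surface glycoprotein that dampens myeloid cells, stood at 192, 246, 255 and 221 CPM against 74.4, 58.3, 67.0 and 35.3. These genes were higher in Chad-high fibroblasts of each library, with ratios between 2.58 (Cd200 at 3 w) and 6.55 (Dlk1 at 16 w). 1500015O10Rik, the gene of the secreted peptide precursor augurin, stood at 2558, 4283, 6920 and 4497 CPM against 1051, 790, 1664 and 1710. Smoc2, a calcium-binding matricellular protein related to Sparc, stood at 596, 612, 869 and 620 CPM against 149, 201, 363 and 165. Cox4i2, the hypoxia-responsive isoform of a cytochrome oxidase subunit, had a geometric mean ratio of 2.71 over the 4 libraries, and Nt5dc2 of 2.51.

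The lowest ratios belonged to genes of several kinds. Clec3b (tetranectin) stood at 2.06, 5.18, 4.36 and 15.5 CPM against 41.3, 77.7, 165 and 110. Ly6a (Sca-1), a surface marker of fibroblast progenitors, stood at 2.37, 11.0, 10.1 and 17.1 CPM against 68.0, 119, 272 and 108. The interferon-inducible genes Ifi27l2a and Ifitm3, the chemokine gene Cxcl12, the transcription factor gene Ebf1 and Gpnmb and Fgl2 were also among the 10 with the lowest ratios, with geometric means from 0.0654 (Ifi27l2a) to 0.217 (Fgl2). These genes were low in all 4 libraries, and for Clec3b, Ly6a and Ifi27l2a the gap was smallest in the injured library.

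Genes of the insulin-like growth factor (IGF) system had the largest share of called genes among the lists examined, with 4 of 7 tested genes lower and none higher. Over all tested genes 0.924% were lower. Igf1, the ligand, stood at 8.74, 9.62, 6.80 and 33.7 CPM against 65.9, 45.2, 80.7 and 293 CPM. Igfbp3, a carrier of the ligand, stood at 2.79, 60.1, 8.78 and 21.1 CPM against 80.7, 284, 108 and 137. Igfbp4 and Igfbp6, further binding proteins, were also called. Igfbp5 stood at 716, 1661, 1060 and 2058 CPM against 1289, 4697, 3515 and 3487 and missed the 2-fold limit at 3 w and in the injured library. Igfbp7, which binds IGF weakly, stood at 3253, 1624, 1700 and 3901 CPM against 2857, 1429, 1637 and 3706, close to the other stromal cells in each library. The median ratio of the 7 genes was 0.357.

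**Figure D2:**
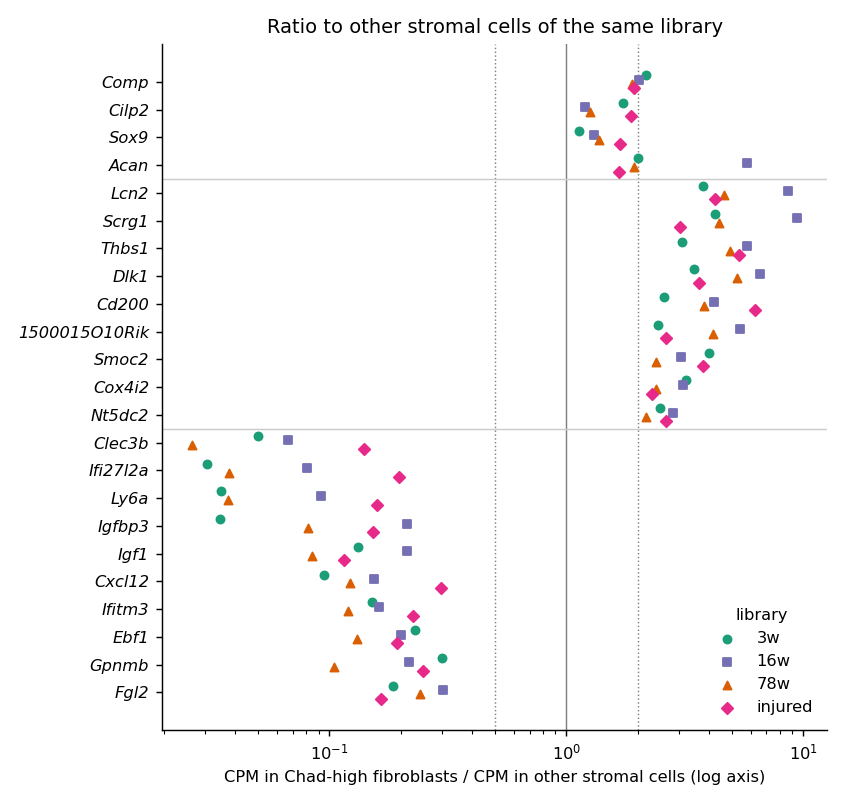
Ratio of the summed CPM of Chad-high fibroblasts to that of the other stromal cells of the same library (x axis, log scale) for 4 cartilage genes, the 9 called higher and the 10 lowest of the 24 called lower (y axis); each symbol is 1 library, the solid line marks equal levels and the dotted lines 2-fold. Comp lies near 2 and Cilp2 between 1.20 and 1.88, the 9 genes lie beyond 2 in all 4 libraries, and Clec3b, Ifi27l2a and Ly6a lie lowest.

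The matrix lists and the further lists below were read against the 0.346% of all tested genes that were higher and the 0.924% that were lower. Of 8 tested small leucine-rich proteoglycans, which space collagen fibrils, none was called, and their median ratio was 1.11. Bgn (biglycan), at 7816, 4752, 4883 and 5706 CPM, and Prelp, at 1909, 2118, 2176 and 2350 CPM, were 1.15 to 1.53 times as high as in the other stromal cells. Aspn (asporin), at 95.5, 300, 363 and 98.4 CPM, lay at 0.271 to 0.537 times their level. Of 12 tested fibril-forming and fibril-associated collagens only Col14a1 was called, lower, and the median ratio was 0.867. Col3a1 stood at 3790, 349, 377 and 2274 CPM against 5835, 913, 1292 and 5411, whereas Col1a1 lay above the other stromal cells at 3 w and 16 w and below them at 78 w and in the injured library. Both genes, with Col1a2, Dcn and Lum, entered the limit that chose the other stromal cells. Chad-high fibroblasts did not have to meet that limit, and 1108, 1750, 1236 and 1257 of them met it. Vcan (versican), the large proteoglycan of loose connective tissue, was the only called gene of 6 tested for aggrecan and hyaluronan, and was lower. Prg4 (lubricin), the surface lubricant, was 1.04 to 1.36 times as high.

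Of 9 tested regulators of cartilage and tendon none was called, and their median ratio was 1.14. Sox9 stood at 218, 773, 864 and 1337 CPM against 192, 588, 629 and 792, which was 1.13 times as high at 3 w (95% interval 1.09 to 1.18) and 1.69 times in the injured library (1.64 to 1.74). Sox6, a partner of Sox9, stood at 93.9, 138, 138 and 76.6 CPM, 1.23 to 1.45 times the level of the other stromal cells. Sox5, its other partner, had ratios from 0.879 to 1.06, and Scx, the tendon transcription factor, from 1.05 to 1.31. Of the Wnt modulators, Wif1, which binds and blocks Wnt ligands, stood at 70.6, 83.3, 15.8 and 63.7 CPM against 16.0, 5.97, 3.76 and 7.37, but its mean lay under 50 CPM and it was not among the genes tested. Sfrp2, another secreted Wnt antagonist, stood at 1.33, 1.24, 0.726 and 23.3 CPM against 44.0, 24.1, 28.6 and 189. It too was not among the genes tested. The share of Chad-high fibroblasts with an Sfrp2 UMI was 1.71%, 0.549%, 0.761% and 4.15%, and that of the shallower endothelial cells 1.14%, 0.971%, 0.176% and 4.00%, near the level of background.

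Several further lists had medians away from that of all genes. Of 9 tested glycolysis and hypoxia genes none was called and 7 had a geometric mean ratio above 1, with a median of 1.27. Bnip3, a hypoxia-induced mitophagy gene, stood at 192, 164, 187 and 184 CPM against 123, 90.7, 111 and 112. None of the 14 immediate early genes, which respond within minutes to stimuli, was called or had a mean ratio above 1, and their median was 0.699. Fos stood at 1287, 2827, 1136 and 1460 CPM against 2746, 4627, 2261 and 1530, so the difference was small in the injured library. Of 7 tested cytokine and complement genes, Cxcl12 and Serping1, the C1 inhibitor, were lower and the median was 0.388. The 4 tested mineralization genes, Mgp, Enpp1, Ank and Spp1, were not called and had geometric mean ratios above 1 with a median of 1.21, though Spp1 lay below the other stromal cells at 16 w (334 against 451 CPM). Mgp and Enpp1 both restrain mineral deposition.

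The medians of the remaining lists ranged from 0.548 to 2.86. Of 10 tested TGF-beta and BMP genes Smoc2 was higher and Tgfbi lower, with a median of 0.985. Mmp2 (gelatinase A) was lower among 9 tested proteases and inhibitors, with a median of 0.911, and Ifitm3 lower among 5 interferon genes, with a median of 0.713. Of 13 tested genes of the secretory pathway, 12 of collagen maturation and 3 of glycosaminoglycan synthesis none was called, and the medians were 0.976, 1.09 and 0.850. Dpt and Clec3b were lower among 14 other matrix glycoproteins, with a median of 0.548. Fn1 (fibronectin) stood at 1237, 1243, 2107 and 1749 CPM against 1882, 2276, 4387 and 3473. Dlk1 was higher among 6 fetal growth genes, with a median of 1.02, and Lcn2 and Scrg1 were higher among 6 genes drawn up from earlier results of these libraries as rising in adult stroma, with a median of 2.86. That last list was chosen on these libraries and its direction is not independent evidence. No cell cycle gene reached the level to be tested, and Mki67, which marks dividing cells, had a UMI in 4, 6, 3 and 4 Chad-high fibroblasts.

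The limit on Chad did not fall at a gap. In a band from 1800 to 2000 CPM of Chad lay 115, 135, 120 and 111 cells, and in the band from 2000 to 2200 lay 115, 87, 118 and 93. Comp stood at 6428, 4779, 7760 and 4392 CPM just outside the limit and at 6540, 4975, 9769 and 3976 just inside it. Scrg1 stood at 215, 107, 255 and 389 CPM outside and at 222, 132, 284 and 447 inside. Comp differed most at 78 w, and in the injured library it was lower inside the limit than outside. Cells lay on both sides of the limit in every library with such cells, and the number inside equalled that outside at 3 w and was lower in the other libraries.

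Over bands of Chad the other genes changed step by step. From stromal cells with 0 UMIs of Chad to those with at least 8000 CPM, Comp went from 2664 to 12634 CPM (3 w), 2818 to 9624 (16 w), 4228 to 14059 (78 w) and 1979 to 6970 (injured). Scrg1 went from 35.9 to 685, from 9.94 to 568, from 36.1 to 787 and from 98.7 to 803 CPM. Both genes increased at every band in all 4 libraries. Median depth moved with the bands as well. It went from 10754 UMIs in cells without Chad to 12613 in the highest band at 3 w. At 16 w it went from 7121 to 12273 and in the injured library from 3390 to 3710. The part of depth in the changes over the bands was not tested. Sox9 changed less, from 177 to 247, from 491 to 787, from 455 to 846 and from 637 to 1144 CPM, and was highest below the top band at 16 w, 78 w and in the injured library. Ly6a went from 135 to 6.81, from 201 to 9.22, from 426 to 3.18 and from 149 to 2.37 CPM, and Igf1 from 115 to 0, from 69.1 to 2.88, from 133 to 0.635 and from 382 to 7.11. In CPM, the largest drop between neighbouring bands lay below 1000 CPM of Chad for both genes in all 4 libraries, outside the limit of the rule.

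**Figure D3:**
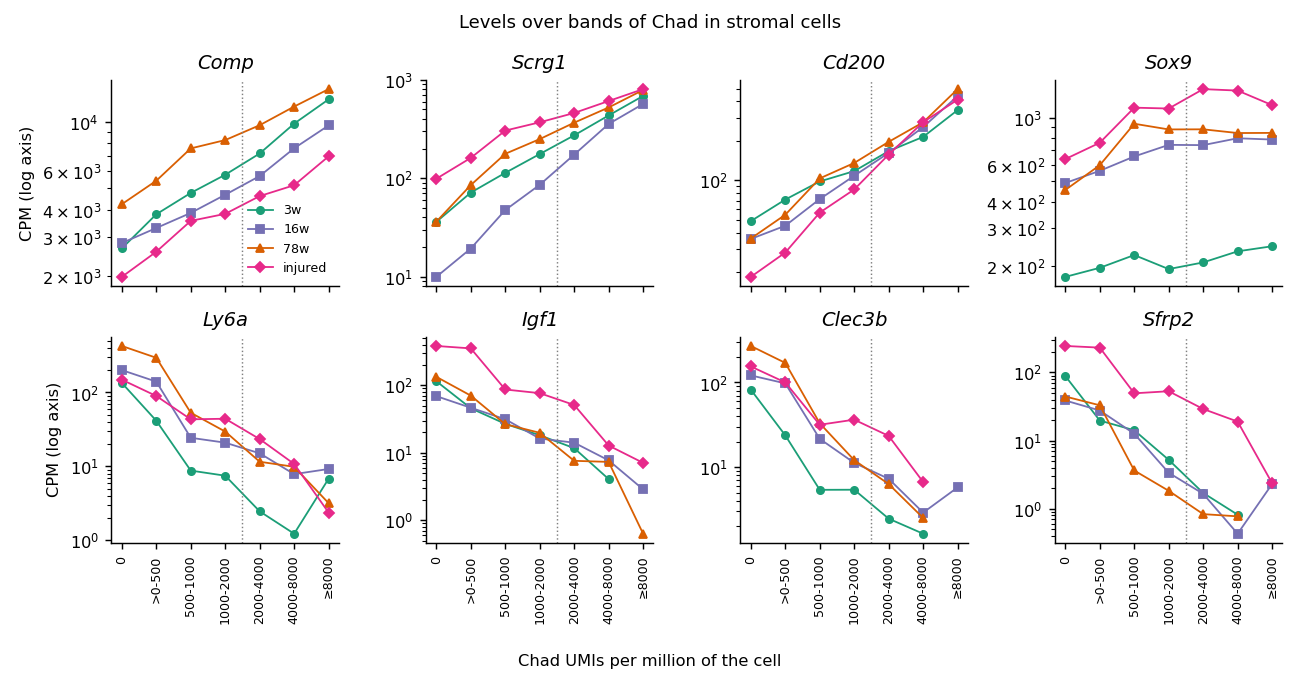
Summed CPM of 8 genes (y axes, log scale) in stromal cells and Chad-high fibroblasts grouped by their Chad level in CPM (x axis), 1 line per library; the dotted line marks the limit of 2000, and bands with 0 UMIs of a gene have no point. Comp and Scrg1 climb at every band in all 4 libraries, from 35.9 to 685 CPM for Scrg1 at 3 w, while Ly6a and Igf1 are highest in the band without Chad, at 426 CPM against 3.18 in the top band for Ly6a at 78 w.

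The Chad-high fibroblasts also varied among themselves. With each cell thinned to 1000 UMIs, the variance of a gene's counts over its mean had a median of 1.15 over 434 genes with a mean of at least 0.2 UMIs, where pure counting error gives 1. The highest values belonged to the nuclear RNA Malat1 (11.5), Mgp (9.19), Prg4 (7.37), Spp1 (7.21), Clu (6.94) and Fos (6.77), as geometric means over the 4 libraries. This measure grows with a gene's level, and Malat1 stood at 33.2 in the injured library against 6.63 to 11.6 in the others. Comp had 3.63. Clu encodes the secreted chaperone clusterin, and Spp1 osteopontin. The spread of Prg4 in single cells was wide, with a 10th percentile of 150 and a 90th percentile of 8185 CPM at 3 w and 2313 and 23340 at 78 w.

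Cytl1, a secreted cytokine-like protein made by chondrocytes, showed how unlike the cells were at 1 age. Its median over the cells was 0, 223, 1446 and 0 CPM, and its 90th percentile was 125, 6704, 12388 and 499. At least 3 UMIs of Cytl1 were found in 8.38%, 49.1%, 70.4% and 8.45% of the Chad-high fibroblasts, against 4.04%, 10.1%, 30.2% and 3.11% of the other stromal cells. The share in endothelial cells was 0.429%, 6.41%, 12.9% and 0.571%, and their level of Cytl1 was 18.0, 542, 562 and 26.6 CPM, at 16 w above the 371 CPM of the other stromal cells. At least 3 UMIs of Tnmd, a gene of tenocytes, were found in 14.9% of the Chad-high fibroblasts at 3 w and in 0.275%, 0.533% and 0.939% of those at 16 w, at 78 w and after injury, against 2.43%, 0.388%, 0.176% and 0.571% of endothelial cells. A limit of 3 UMIs is harder to reach in the injured cells, whose median depth was 3782 UMIs against 14770 at 3 w, and the levels of Tnmd differed less, at 35.8 and 79.7 CPM. Among the normal libraries, the 3 w cells overlapped the most with Tnmd-positive cells, which made up 17.8% of the other stromal cells at 3 w.

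Chad-high fibroblasts were also set beside 3 neighbouring classes of cells defined by other genes. Cells with at least 3 UMIs of Ibsp (548, 419, 413 and 26 cells) were nearest. Of 2496 genes none was at least 2-fold higher in Chad-high fibroblasts in all 4 libraries (0%) and none was lower (0%). Comp stood at 8805, 9670, 12668 and 5670 CPM in the Ibsp cells, above its level in Chad-high fibroblasts in each library. Chad stood at 2679, 8686, 4318 and 3975 CPM there, above Chad-high fibroblasts at 16 w only. Single libraries did differ: Cytl1 stood at 2459 CPM in Chad-high fibroblasts and 6393 in Ibsp cells at 16 w, and Acan at 104 and 231 at 78 w. With 26 Ibsp cells the injured library limits this comparison.

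Cells with at least 3 UMIs of Col2a1 and an Acan UMI (48, 116, 318 and 85 cells) carried more of the cartilage genes. Of 2464 genes, 1 was higher in Chad-high fibroblasts (0.0406%), the Wnt antagonist Sfrp1, and 7 were lower (0.284%). The lower genes that belong to the lists were Acan, which chose the Col2a1 cells, Wif1, Col9a3, Col11a1 and Col11a2, and Mia and 3110079O15Rik (Snorc), both cartilage genes, are named after their values were seen. Acan stood at 183, 386, 550 and 340 CPM in the Col2a1 cells, and Scrg1 at 497, 1118, 1355 and 919. Chad itself stood at 5933, 13167, 7194 and 6414 CPM there, above its level in Chad-high fibroblasts in each library.

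Cells with at least 3 UMIs of Tnmd and Chad under the limit (845, 63, 160 and 210 cells) differed most. Of 2603 genes, 35 were higher in Chad-high fibroblasts (1.34%), among them Cytl1, Lcn2, Clu, Dlk1, Scrg1, Hapln1, Prg4 and Cilp2. There were 64 lower genes (2.46%), among them Tnmd, which chose the class, Sfrp2, Igf1, Postn (periostin), Kera (keratocan) and Aspn. Hapln1, the link protein that ties aggrecan to hyaluronan, stood at 153, 118, 146 and 132 CPM in Chad-high fibroblasts and at 47.5, 10.2, 27.6 and 32.2 in Tnmd cells. Kera, a keratan sulfate proteoglycan, stood at 24.2, 14.9, 10.8 and 28.9 CPM and at 114, 279, 483 and 253 in Tnmd cells. For both genes the levels of the classes did not overlap over the 4 libraries.

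Between 3 w and 16 w, from the juvenile to the adult disc, the Chad-high fibroblasts differed at many genes. Of 2628 genes, 108 were at least 2-fold higher at 16 w (4.11%) and 86 were lower (3.27%), each with an interval of the ratio beyond 1, and the median ratio was 0.941. With 1 library an age, age and library cannot be told apart. Scaled to the median ratio in place of the total, 133 were higher and 65 lower, so that 67.2% of the called genes were higher in place of 55.7%, and in cells thinned to 1000 UMIs the share was 45.5%. A fold of 1.5 gave 296 higher and 403 lower genes, so the balance between higher and lower genes depends on these settings.

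Genes of the collagen fibre were lower at 16 w. Col1a1, the main chain of collagen I, stood at 13174 CPM in juvenile and 950 in adult cells, a ratio of 0.0721 (95% interval 0.0711 to 0.0731), beside 10349 and 873 in the other stromal cells. Col1a2 stood at 16443 and 1992 CPM, Col3a1 at 3790 and 349, and Sparc, a collagen-binding matricellular protein, at 32064 and 3001. Of 12 tested fibril collagens, 7 were lower and none higher, with a median of 0.453, where 3.27% of all tested genes were lower. Eln (elastin), Lox, the enzyme that starts collagen cross-linking, Col11a1 and Col9a3 were also lower, whereas Col27a1, a fibril-forming collagen of cartilage, was higher (29.5 and 90.2 CPM). Cilp2 stood at 1839 and 315 CPM, and Angptl7, a secreted angiopoietin-like protein, at 2934 and 632. At 78 w Col1a1 stood at 519 CPM and Sparc at 2769, both well under the juvenile level. Other stromal cells then had 927 CPM of Col1a1, against 873 at 16 w, and 2801 of Sparc.

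Single genes of several lists were higher at 16 w. Cytl1 stood at 103 and 2459 CPM, a ratio of 23.9 (95% interval 22.8 to 25.1), beside 53.2 and 371 in the other stromal cells. Prg4 stood at 3504 and 9219 CPM and Sox9 at 218 and 773. Sox9 had a ratio of 3.55 in these cells (3.43 to 3.68) and 3.06 in the other stromal cells. Fbln1 (fibulin), Thbs1, Aspn, Ogn and Ecm2 of the matrix lists were higher, as were the complement gene C4b and the chaperone gene Hspa5 of the endoplasmic reticulum. The matricellular genes Ctgf and Cyr61, known targets of mechanical signalling, stood at 3724 and 7747 and at 320 and 1546 CPM.

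Of the 14 immediate early and heat-shock genes, 8 were higher at 16 w, with a median of 2.18 over the list. Over all tested genes 4.11% were higher. Fosb stood at 321 and 1150 CPM, Dusp1, a phosphatase of MAP kinases, at 390 and 1755, and Hspa1b at 204 and 801. The other stromal cells went the same way, with Fosb at 656 and 1188 and Hspa1b at 222 and 1316. Mt2, the metal-binding metallothionein, stood at 751 and 5295 CPM, and Hbegf, an EGF receptor ligand, at 43.9 and 235. Id2, an inhibitor of basic helix-loop-helix factors, stood at 51.7 and 296 CPM and Rasl11a at 22.7 and 122. Coch, a matrix protein, had the largest ratio (1.09 and 114 CPM), with 33.9% of its UMIs at 16 w from 1 cell. The lowest ratios also included Aoc2 (167 and 1.92 CPM), Ppic (238 and 43.2), a prolyl isomerase of the secretory pathway, and Dbp (371 and 68.7), a clock-controlled transcription factor.

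Between 16 w and 78 w, from the adult to the aged disc, fewer genes differed. Of 2482 genes, 20 were higher at 78 w (0.806%) and 11 lower (0.443%), with a median ratio of 0.976. With a fold of 1.5 the balance turned, at 60 higher and 94 lower. Lcn2 stood at 296 CPM in adult and 941 in aged cells, a ratio of 3.18 (95% interval 3.09 to 3.27), beside 34.4 and 204 in the other stromal cells. Spp1 stood at 334 and 1297 CPM beside 451 and 581, and Lum (lumican), a small leucine-rich proteoglycan, at 273 and 987 beside 422 and 1088. The juvenile cells, at 930 CPM of Spp1 and 464 of Lum, lay between, so neither gene followed age in order. Acan stood at 43.2 and 104 CPM beside 7.43 and 54.1 in the other stromal cells and 10.6 and 41.7 in endothelial cells, and the share of cells with an Acan UMI was 23.0% and 42.8%.

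Chil1, a chitinase-like secreted protein of chondrocytes, stood at 35.8 and 167 CPM, Gpx3, an extracellular glutathione peroxidase, at 237 and 960, and C3, the central complement component, at 41.8 and 158. Pcsk5, a proprotein convertase, stood at 33.2 and 180 CPM and Tnfaip6, a hyaluronan-binding protein of inflammation, at 201 and 653. The other stromal cells stood at 36.3 and 176 CPM of Pcsk5 and 190 and 635 of Tnfaip6, nearly the same levels. Tnn, Inhba, Cpe, Timp1 and Htra1 of the lists, and Erdr1 and Gm26870 by size of the ratio, were also higher. For Htra1, a secreted protease that cleaves cartilage matrix, the levels were 901 and 2016 CPM. Cytl1 stood at 2459 and 4238 CPM, a ratio under 2.

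Thrombospondins and genes of the response to stimuli were among the 11 lower genes. Thbs1 stood at 337 and 118 CPM, a ratio of 0.352 (95% interval 0.334 to 0.371), and Thbs2 at 578 and 285. Fos stood at 2827 and 1136 CPM, Egr1 at 797 and 369, Zfp36 at 364 and 161 and Socs3, a feedback inhibitor of cytokine receptors, at 507 and 220. All 14 immediate early and heat-shock genes had ratios under 1, with a median of 0.635, though only Fos and Zfp36 passed the 2-fold limit. Over all tested genes 0.443% were lower. Mt2, Itih5, Cald1, Fbn1 and Coch completed the 11. Since 12 of the 14 had ratios above 1 at 16 w against 3 w, the adult library stood above both its neighbours in age for most of this list.

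**Figure D4:**
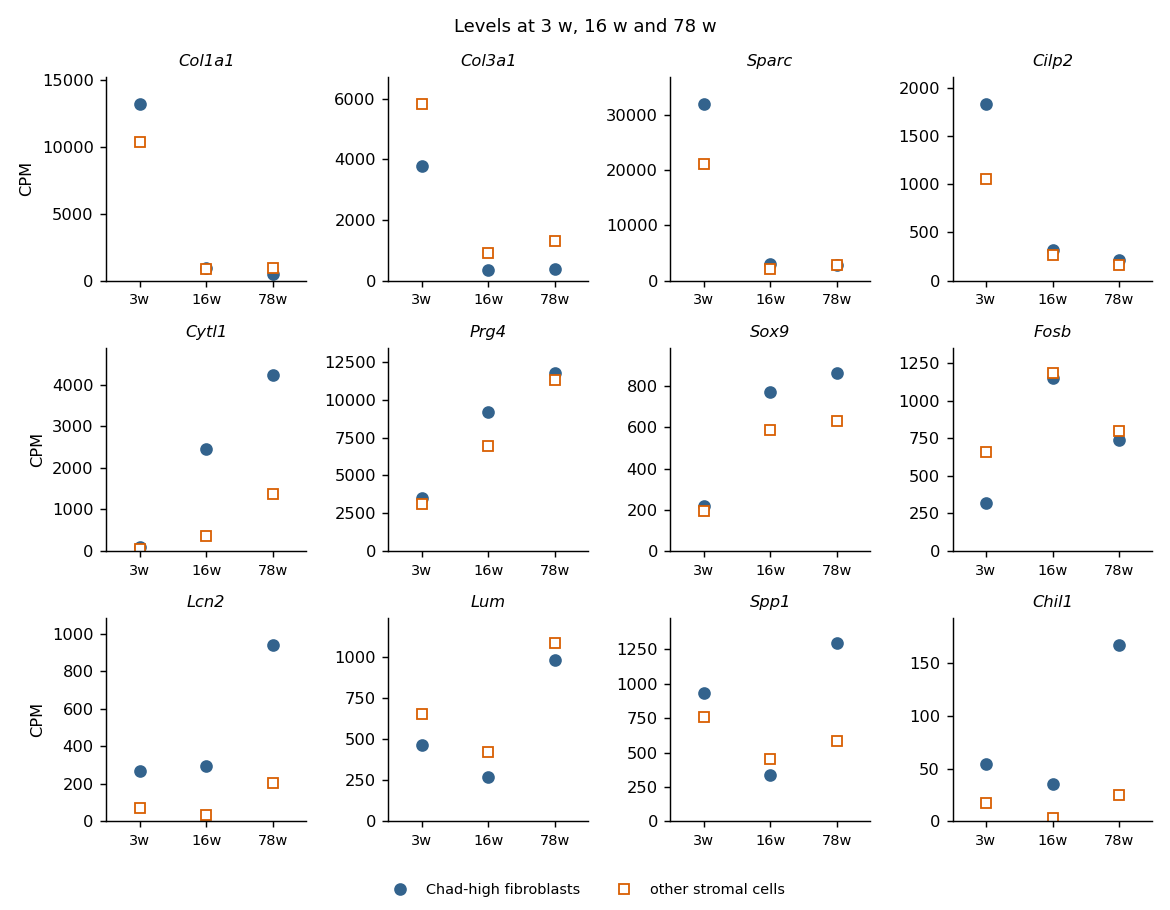
Summed CPM (y axes, from 0) of 12 genes at 3 w, 16 w and 78 w (x axes) in Chad-high fibroblasts (filled circles) and other stromal cells (open squares), 1 library an age. Col1a1 stands at 13174, 950 and 519 CPM and Cytl1 at 103, 2459 and 4238 in Chad-high fibroblasts, while Lcn2 is higher than in the other stromal cells at each age.

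The injured library was compared with both the 3 w and the 16 w library, since its age lies between them. A gene was called when it differed at least 2-fold in the same direction from both. Of 2530 genes, 89 were higher (3.52%) and 139 lower (5.49%). The median ratio over all genes was 0.848 against 3 w and 0.900 against 16 w, a shift of -0.19 on the log2 scale for their geometric mean. Scaled to the median ratio, 144 genes were higher and 88 lower, so that 62.1% of the called genes were higher in place of 39.0%, and the balance of higher and lower calls rests on the scaling. Depth differed with the library, at a median of 3782 UMIs a cell against 14770 and 11427.5, and the median mitochondrial share was 1.81% against 2.80% and 3.34%. The calls include Xist and Ddx3y, and the part of depth and sex in the other calls was not tested.

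Spry2, a feedback inhibitor of receptor tyrosine kinases, stood at 425 CPM in the injured library against 30.3 at 3 w and 67.3 at 16 w, beside 293, 47.7 and 58.5 in the other stromal cells. Tmsb10, an actin-binding thymosin, stood at 1482 CPM against 251 and 280, and Slc39a1, a zinc transporter, at 399 against 70.3 and 62.3. Notch2, a Notch receptor, stood at 360 CPM against 68.5 and 66.0. The other stromal cells of the injured library had 1563 CPM of Tmsb10, 426 of Slc39a1 and 373 of Notch2, close to the levels of Chad-high fibroblasts. Abhd2 (212 against 33.1 and 51.7), Bhlhe41 (123 against 32.4 and 18.4), a clock-related repressor, and Nme2 (213 against 35.0 and 41.5), a nucleoside diphosphate kinase, were also among the 10 highest. Of the 14 secretory genes Sec61b and Kdelr2, of protein entry into and retrieval to the endoplasmic reticulum, were higher, with Kdelr2 at 520 CPM against 161 and 172. Over all tested genes 3.52% were higher. Igfbp4 stood at 97.1 CPM against 44.0 and 27.1.

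The remaining genes of the 10 highest were predicted genes. Gm26870 stood at 8502 CPM against 512 and 119, Gm10800 at 341 against 5.46 and 1.65, and Gm11808 at 259 against 28.0 and 55.1. Gm42418, a locus that overlaps ribosomal RNA repeats, went the other way, at 559 CPM against 8775 and 2517. The other stromal cells had 6835 CPM of Gm26870 and 579 of Gm42418 in the injured library, close to these levels. Reads of such loci can be shared between near-identical copies, and their counts are uncertain.

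Lower in the injured library were Tnfaip2 (29.8 CPM against 241 and 335), Medag (46.6 against 278 and 453), Ube2q2 (62.8 against 442 and 490), Tmem140 (11.0 against 101 and 48.4) and Gm10073 (19.9 against 94.4 and 115). Mt2 stood at 283 CPM against 751 and 5295, Btg2, an antiproliferative early response gene, at 34.1 against 219 and 189, and Tgm2, a transglutaminase that cross-links matrix, at 23.9 against 65.8 and 263. Their levels in the other stromal cells of the injured library were 517 CPM for Mt2 and 20.3 for Tgm2, also low. Of the lists, Ctgf stood at 1647 CPM against 3724 and 7747, Lcn2 at 127 against 271 and 296, Fbln2 at 125 against 275 and 268 and Adamts5, an aggrecanase, at 88.7 against 213 and 210. After injury the other stromal cells had 851 CPM of Ctgf, 29.98 of Lcn2 and 55.4 of Adamts5.

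Col1a1, Col3a1 and Sparc of the injured library lay well above the adult level. Col1a1 stood at 19138 CPM, above 3 w (13174) and 16 w (950), without reaching 2-fold against 3 w, and at 24688 CPM in the other stromal cells. Sparc stood at 17928 CPM, Col3a1 at 2274 and Cilp2 at 702. None of 12 tested fibril collagens, 8 proteoglycans or 7 genes of the Comp, Cilp and thrombospondin list was called against both libraries. Sox9, at 1337 CPM, was the highest of the 4 libraries in both classes of cells. Cytl1, at 292 CPM, was nearer to the 3 w level of 103 than to the 16 w level of 2459.

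**Figure D5:**
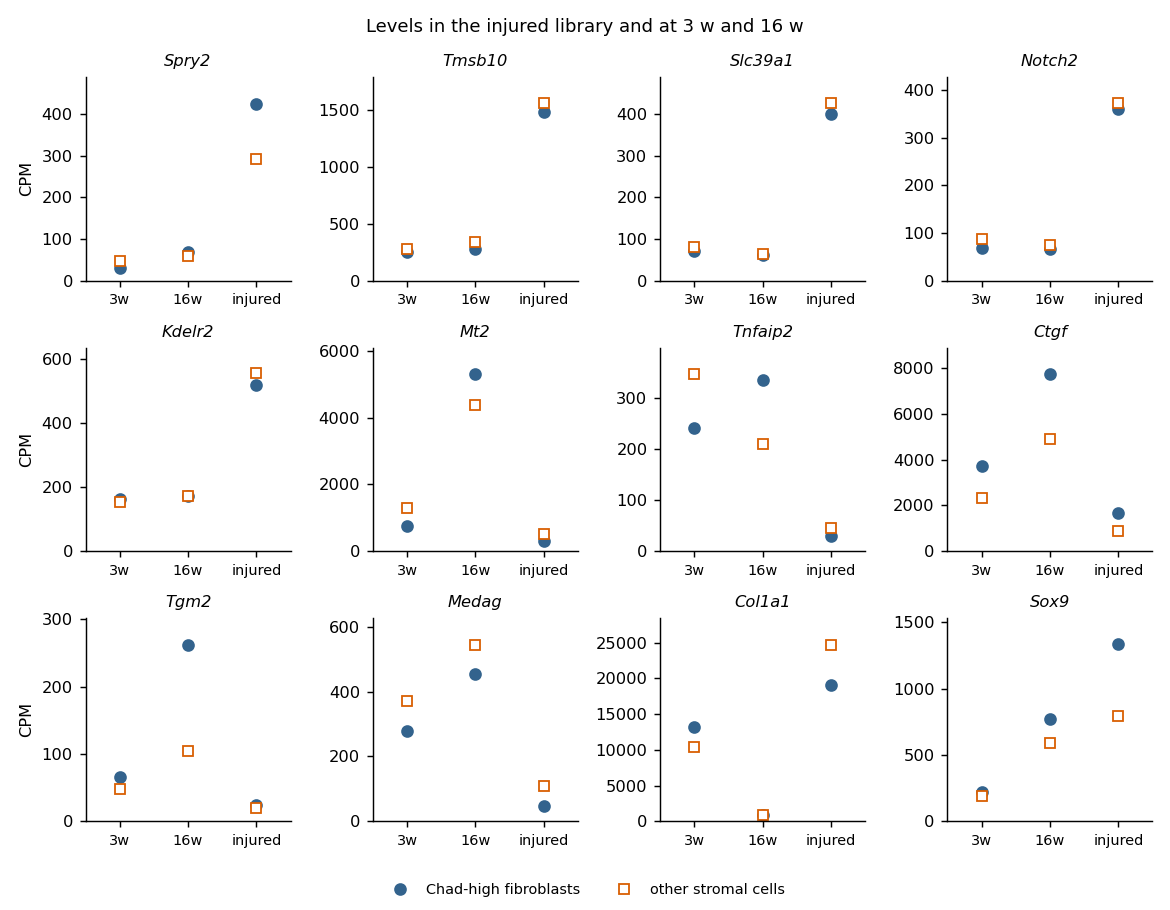
Summed CPM (y axes, from 0) of 12 genes at 3 w, 16 w and in the injured library (x axes) in Chad-high fibroblasts (filled circles) and other stromal cells (open squares), 1 library a condition. Spry2, Tmsb10, Slc39a1, Notch2 and Kdelr2 are highest and Mt2, Tnfaip2, Ctgf, Tgm2 and Medag lowest in the injured library in both classes of cells, and Col1a1 stands at 19138 CPM after injury against 13174 at 3 w and 950 at 16 w.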

How the data were processed

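Discs were digested with Pronase and Collagenase P and captured with 10x Chromium 3' chemistry. A gene named as leading a list held the most UMIs of it, which is not a level per length. The deposited files hold raw UMI counts per gene and cell, made by the authors with Cell Ranger (3.1 and mm10 per the submitters' processing notes, 4.0.0 per the file headers). All 5 libraries had a matrix, and the 4 normal ones held 43481 barcodes, all above the study's limit of 200 transcripts. All counts were summed over the cells of a class and library and scaled to a total of 1000000 UMIs (CPM). No test was made, because each condition was 1 library and the cells were chosen by their own counts. Ratios carry exact 95% intervals of the ratio of 2 counts and shares exact Clopper-Pearson intervals, and a count of 0 was given the limit of 3 counts. Genes with a mean of at least 50 CPM over the classes compared entered a comparison and are called tested in that sense only. No doublet caller was run, and cells above 2 times the median UMIs were left out as an alternative. The members and the 36 gene lists (368 genes) were chosen with earlier results of these data known. Named genes were those of the lists and the 10 called genes with the largest ratio in each direction of a comparison, without the genes of the rule, mitochondrial and sex-linked genes. A few genes that met this rule are not reported here. On simulated counts for 16 w against 3 w with 120 genes changed 4-fold, 100% were recovered. These counts were drawn with counting error only, without variation between cells or libraries. The recovery therefore checks the calculation and says nothing on such variation. In that simulation the 95% interval of the ratio held 1 at a rate of 92.08%. A comparison of 3 w with 3 d was planned and had no value, since no cell qualified at 3 d. Gene positions came from GENCODE M21, in which 27645 of 27998 identifiers were found. Python 3.11.15, numpy 2.4.6, scipy 1.17.1, pandas 2.3.3 and matplotlib 3.10.9 were used.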

Additional observations from a re-analysis of the deposited data

How the results depend on the processing

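The shares of Chad-high fibroblasts at 3 w, 16 w, 78 w and after injury were 19.8%, 29.3%, 21.0% and 25.4% with a Chad limit of 1000 CPM, 4.39%, 11.8%, 5.73% and 7.50% with 4000, 18.4%, 30.3%, 20.8% and 19.7% without limits on Ibsp and Col2a1, and 22.5%, 32.7%, 22.4% and 22.8% (0.0514% at 3 d) in cells thinned to 1000 UMIs. With at least 2000 UMIs the injured share was 18.0%. A mitochondrial limit of 10% and leaving out cells above 2 times the median UMIs kept all 5 shares within their intervals. The adult library had the highest share under each alternative that set all 4 shares. Against other stromal cells, a fold of 1.5 gave 31 higher and 65 lower genes, no minimum level 52 and 406, stromal cells with 0 UMIs of Chad 22 and 54, and a Chad limit of 4000 gave 16 higher genes. Leaving out each library in turn gave 9 to 15 higher and 26 to 33 lower genes. A fold of 1.5 gave 296 higher and 403 lower genes for 16 w against 3 w, 60 and 94 for 78 w against 16 w, and 239 and 450 after injury. No minimum level gave 1074 and 834, 284 and 463, and 518 and 926. For 78 w against 16 w a Chad limit of 4000 gave 17 lower genes, and after injury median-ratio scaling gave 144 higher and 88 lower. Of 754 ratios of named genes recomputed, 149 moved by more than their interval. A change of side was counted for called genes only, and 0 of these changed sides. Col1a1 was not called against other stromal cells and had a geometric mean ratio of 0.881. Without the 78 w library its ratio lay slightly above 1. The causes were not tested. No paired test was made: conditions had 1 library each, and the contrast within libraries was between cells chosen by their own counts. That contrast was read within each library. The limits are 1 library a condition, the lower depth of the injured library (31585993 UMIs), and members that were chosen on a measured gene.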

Other observations

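Further secreted regulators and their partners in Chad-high fibroblasts differed between the juvenile and the adult library. Bmp2, a bone morphogenetic protein that promotes cartilage and bone formation, stood at 54.4 CPM at 3 w and 158 at 16 w, and Vegfa, the endothelial growth factor, at 31.1 and 102. The other stromal cells went the same way, with 84.2 and 264 CPM of Bmp2 and 42.3 and 118 of Vegfa. Tgfbi, a TGF-beta-induced matrix protein, stood at 73.2 and 31.9 CPM, whereas it was nearly level in the other stromal cells (164 and 164). The Wnt antagonist Sfrp1 stood at 120 and 270 CPM, and the transcription factor Foxc1 at 27.2 and 97.5.

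Among the IGF-binding proteins, Igfbp5 was higher at 16 w (716 and 1661 CPM) and Igfbp7 lower (3253 and 1624). Both genes went the same way in the other stromal cells. Of 9 tested genes of matrix breakdown and its inhibition, 3 were lower in Chad-high fibroblasts, where 3.27% of all tested genes were lower. The gelatinase gene Mmp2 stood at 112 and 46.1 CPM, the collagen-cleaving cathepsin gene Ctsk at 156 and 46.3, and the inhibitor gene Timp1 at 153 and 67.5. Timp1 was back at 156 CPM at 78 w. Peg3, an imprinted growth gene, stood at 52.0 and 137 CPM. Each of these is 1 library an age, and age and library cannot be told apart.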
